A study of Mus musculus with 90 samples.

Results

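The genes described are 10 immediate early genes of the mouse, Fos, Fosb, Jun, Junb, Atf3, Egr1, Egr2, Egr3, Ier2 and Ier3, out of 24543 genes with a level in the deposited table. They were chosen by symbol, and each symbol matched 1 row. Total RNA of bone marrow-derived macrophages (BMMs) was sequenced in 90 libraries of 38 groups, in 3 experiments that ask what the transcription factor Irf8 changes in macrophages and in the osteoclasts that form from them. Irf8-/- cells (KO) and Irf8+/+ cells (WT) were taken with M-CSF alone at day 0 and with M-CSF and RANKL, the cytokine that drives osteoclast formation, at days 4 and 8 (17 libraries, 3 per group except 2 for WT at day 4). Irf8-/- cells transduced with the human IRF8 constructs labelled hWT (wild type), hG388S and h379_389, and cells labelled mock, were followed over the same days (33 libraries, 3 per group except 2 for hWT, hG388S and mock at day 8). The same 4 kinds of cell were also taken as macrophages in 5 conditions, namely untreated, given interferon-gamma (IFNg), and given IFNg plus the bacterial product lipopolysaccharide (LPS) for 1, 4 or 8 h (40 libraries, 2 per group). What the mock cells received, the sequence change of h379_389, the ages of the mice and the dose and length of the IFNg treatment are not given in the sources used here, and the design text says that both sexes were used without saying in which library. Levels are given in RPKM, in which reads are divided by gene length and by the alignments of the library.

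Immediate early genes are transcribed within minutes of a stimulus from factors that are already present in the cell, and their transcripts are short-lived. Toll-like receptor 4, the receptor for LPS, acts through NF-kB and through the ERK, JNK and p38 kinases, which act on serum response factor with its ternary complex partners and on CREB. Fos, Fosb, Jun and Junb encode subunits of the dimeric factor AP-1, and Atf3 encodes a related factor that restrains inflammatory genes in macrophages. Egr1, Egr2 and Egr3 encode zinc finger factors of one family, Ier2 a nuclear protein, and Ier3 a short-lived stress-response protein rather than a factor that binds DNA itself. In osteoclast precursors Fos is required for RANKL to start the osteoclast programme.

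The promoters below are shown so that the matches to motifs of the factors named above can be seen beside the genes they precede. They are RefSeq sequences on build GRCm38.p6, which shares its chromosome coordinates with mm10, the build named by the file headers, and each is written on the strand of its gene with motif matches in capitals. RefSeq windows of 300 bases were at hand for 7 of the 10 genes, and the 250 bases before the start were searched on both strands. The part printed lies outside the annotated gene, except for Egr2, where the start searched lies inside the annotated gene and 30 bases around the CArG box, the site of serum response factor, are printed.
Fos, chr12:85473640-85473889, plus strand: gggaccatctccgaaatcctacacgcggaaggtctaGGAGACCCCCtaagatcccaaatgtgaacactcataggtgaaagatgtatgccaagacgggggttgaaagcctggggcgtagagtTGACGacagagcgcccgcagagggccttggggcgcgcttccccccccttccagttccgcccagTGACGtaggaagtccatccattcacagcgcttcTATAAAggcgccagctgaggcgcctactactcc
Fosb, chr7:19310119-19310295, minus strand: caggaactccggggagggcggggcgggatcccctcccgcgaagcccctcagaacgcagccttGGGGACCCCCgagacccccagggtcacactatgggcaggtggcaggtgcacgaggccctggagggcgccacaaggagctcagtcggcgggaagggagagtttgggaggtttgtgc
Atf3, chr1:191183334-191183583, minus strand: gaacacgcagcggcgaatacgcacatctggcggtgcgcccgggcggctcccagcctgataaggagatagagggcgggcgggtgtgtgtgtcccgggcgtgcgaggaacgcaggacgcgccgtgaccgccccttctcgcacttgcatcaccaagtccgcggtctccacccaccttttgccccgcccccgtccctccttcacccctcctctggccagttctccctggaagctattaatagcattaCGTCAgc
Egr2, chr10:67537790-67537819, plus strand: cctcagtCCATATATGGgcagcgaCGTCAc
Ier3, chr17:35821463-35821712, plus strand: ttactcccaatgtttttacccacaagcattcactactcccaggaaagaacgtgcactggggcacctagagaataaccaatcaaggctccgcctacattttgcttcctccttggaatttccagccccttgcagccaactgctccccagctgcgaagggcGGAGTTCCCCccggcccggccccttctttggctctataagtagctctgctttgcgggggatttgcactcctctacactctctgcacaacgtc
In Fos the capitals mark an NF-kB site, a pair of CRE core matches (TGACG, bound by CREB and ATF proteins) and the TATA box (TATAAA). In Fosb and Ier3 they mark an NF-kB site (Fosb holds a CRE core and an Egr site too, in a part not printed), in Atf3 a CRE core close to the start, read on the other strand as CGTCA, and in Egr2 a CArG box followed by a CRE core. Egr2 also held overlapping NF-kB matches in the window of another annotated start and a further CArG box (CCTTTTTTGG) in that of a different one. Neither window is printed. The windows of Jun and Junb were searched but are not printed either. Junb held a CRE core alone, and Jun held no match to any motif searched. Of 32536 distinct windows of all genes, 7.28% held an NF-kB site, 17.9% the CRE core TGACG, 12.3% TATAAA and 1.48% a CArG box, so the CArG box is the rarest of these. The core also lies within the full CRE TGACGTCA, which 1.56% of windows held and none of the 7 genes did. The AP-1 site TGANTCA (6.73% of windows), the Egr site GCGNGGGCG (4.74%) and the ETS-IRF composite element (2.31%), which Irf8 binds with the factor PU.1, were searched as well. The Egr site was found in Fosb alone of the 7, and neither the AP-1 site nor the composite in any. These matches are letters in a window, not measured binding. Sites further than 250 bases before a start were not searched, so a motif not found here may still lie further off.

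The libraries held 0.218 to 122 M alignments (median 41.1 M), and all but the shallowest at least 15.6 M. The shallowest, the library labelled untreated hWT macrophages replicate 1, goes against its label. The IFNg-induced genes Cxcl9 and Gbp2 stood there at 817 and 1554 RPKM, where the other 7 untreated libraries had 1.49 to 3.93 and 12.3 to 45.8 RPKM and the 8 IFNg libraries 522 to 1915 and 2013 to 3227 RPKM. Results that use it are given with and without it. Irf8, the targeted gene, was counted in KO cells at 33.3 ± 0.85 RPKM against 72.0 ± 2.57 RPKM in WT cells at day 0 (SD, n = 3 each), over the whole gene. Of 6 macrophage markers, 5 or 6 had a mean of at least 1 RPKM in every group, and the osteoclast list summed to at least 2367 RPKM at days 4 and 8, against at most 97.6 RPKM at day 0. Lists for mast cells, erythroid cells, B cells and T or NK cells summed to at most 1.70 RPKM. In bulk RNA, fewer cells of a type and less RNA per cell cannot be told apart. The column headers carry library ID prefixes whose meaning is not stated. Untreated and most IFNg macrophage libraries share one prefix, all LPS 1 h libraries, mock at LPS 4 h and h379_389 with IFNg a second, and the other LPS 4 h and all LPS 8 h libraries another. What a prefix marks and the time of LPS can be told apart only where one prefix spans 2 conditions.

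The LPS course asks when each gene responds. All 10 genes were higher after 1 h of LPS with IFNg than with IFNg alone in each of the 4 kinds of macrophage, and 9 of the 10 had their highest mean of the 5 conditions at 1 h in every kind. The exception was Ier3, which was highest at 8 h in every kind. Egr1 changed most, with a few RPKM under IFNg and at least 392 RPKM in every library at 1 h, and was back to single digits at 4 h.

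**Figure D1:**
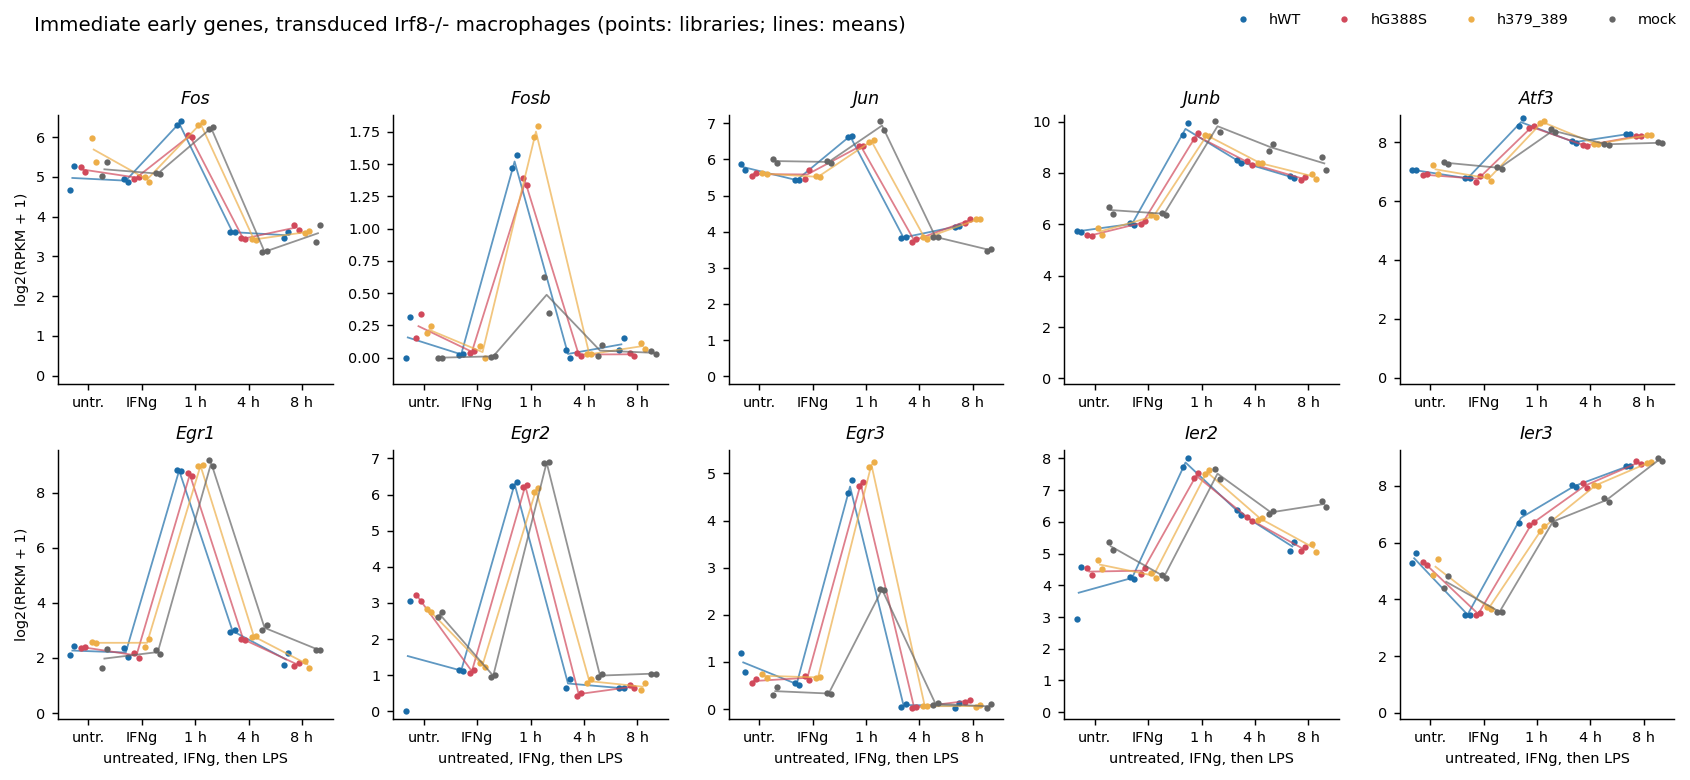
Level of each gene, as log2(RPKM + 1), in macrophages carrying hWT, hG388S, h379_389 or mock, untreated, with IFNg, and with IFNg and LPS for 1, 4 and 8 h. Points are libraries (2 per group) and lines join group means. The genes peak at 1 h apart from Ier3, which is highest at 8 h, and Fosb and Egr3 at 1 h are lower in mock than in the 3 constructs.

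Of the AP-1 genes, Fos ran over the 8 libraries of each condition at 24.5 to 62.5 RPKM (median 37.4) untreated, 28.3 to 33.2 RPKM (median 30.4) with IFNg, 63.6 to 83.2 RPKM (median 76.1) at LPS 1 h, 7.57 to 11.3 RPKM (median 9.77) at 4 h and 9.35 to 12.8 RPKM (median 11.3) at 8 h. Fos was therefore lower at 4 and 8 h than it had been with IFNg alone, with no overlap between the libraries. In the limma test described below, 73.9% of all genes were lower than with IFNg at 4 h and 66% at 8 h. The shares of all genes that were higher were 15.3% and 19.2%. How many of all genes have no overlap between the 8 libraries of 2 conditions was not computed, here and for the genes below. Jun ran over the 8 libraries of each condition at 45.6 to 63.7 RPKM (median 49.8) untreated, 42.0 to 60.9 RPKM (median 44.8) with IFNg, 81.2 to 132 RPKM (median 95.01) at LPS 1 h, 12.2 to 13.5 RPKM (median 13.2) at 4 h and 10.2 to 19.6 RPKM (median 17.4) at 8 h. Jun behaved like Fos, with a rise at 1 h and levels at 4 and 8 h below those of every IFNg library. Junb ran over the 8 libraries of each condition at 45.2 to 102 RPKM (median 52.2) untreated, 62.0 to 86.5 RPKM (median 72.3) with IFNg, 646 to 1052 RPKM (median 742) at LPS 1 h, 317 to 559 RPKM (median 342) at 4 h and 209 to 395 RPKM (median 230.4) at 8 h. Junb, whose protein partners Fos but activates less strongly than Jun, stayed above every IFNg and untreated library at 4 and 8 h. Fosb ran over the 8 libraries of each condition at 0 to 0.261 RPKM (median 0.127) untreated, 0 to 0.0620 RPKM (median 0.0180) with IFNg, 0.272 to 2.46 RPKM (median 1.70) at LPS 1 h, 0 to 0.0686 RPKM (median 0.0184) at 4 h and 0.00990 to 0.109 RPKM (median 0.0370) at 8 h. Fosb was near or under the 1 RPKM used as a pseudocount in all conditions, and at 1 h both mock libraries lay below the construct libraries.

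Atf3 ran over the 8 libraries of each condition at 116 to 161 RPKM (median 132) untreated, 100.3 to 142 RPKM (median 111) with IFNg, 322 to 452 RPKM (median 373) at LPS 1 h, 232 to 259.8 RPKM (median 243) at 4 h and 249 to 309 RPKM (median 298) at 8 h. Every library at 1, 4 and 8 h lay above every IFNg and untreated library. Within a kind of macrophage, 70% (mock) to 83.5% (hG388S) of all genes did not overlap between LPS 1 h and IFNg, in either direction. Among the Egr genes, Egr1 ran over the 8 libraries of each condition at 2.12 to 4.95 RPKM (median 4.25) untreated, 2.997 to 5.50 RPKM (median 3.70) with IFNg, 392 to 581 RPKM (median 476) at LPS 1 h, 5.33 to 8.10 RPKM (median 6.40) at 4 h and 2.14 to 3.95 RPKM (median 2.65) at 8 h. Egr2 ran over the 8 libraries of each condition at 0 to 8.34 RPKM (median 5.96) untreated, 0.941 to 1.51 RPKM (median 1.19) with IFNg, 66.2 to 118 RPKM (median 75.1) at LPS 1 h, 0.354 to 1.05 RPKM (median 0.785) at 4 h and 0.503 to 1.06 RPKM (median 0.609) at 8 h. The zero of Egr2 is the library that goes against its label, and the next lowest untreated level was 5.13 RPKM. Egr3 ran over the 8 libraries of each condition at 0.229 to 1.28 RPKM (median 0.565) untreated, 0.243 to 0.637 RPKM (median 0.499) with IFNg, 4.74 to 36.8 RPKM (median 26.5) at LPS 1 h, 0.0164 to 0.0970 RPKM (median 0.0433) at 4 h and 0.00945 to 0.149 RPKM (median 0.0682) at 8 h. At 4 and 8 h no library reached the lowest IFNg level of Egr3, and Egr1 and Egr2 were close to their IFNg levels.

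Ier2 ran over the 8 libraries of each condition at 6.74 to 39.96 RPKM (median 22.6) untreated, 17.5 to 22.6 RPKM (median 18.6) with IFNg, 163 to 258 RPKM (median 192) at LPS 1 h, 63.7 to 82.1 RPKM (median 72.1) at 4 h and 32.5 to 100.4 RPKM (median 37.4) at 8 h. Ier3 ran over the 8 libraries of each condition at 20.2 to 48.4 RPKM (median 36.8) untreated, 9.99 to 12.3 RPKM (median 10.6) with IFNg, 84.8 to 133 RPKM (median 101) at LPS 1 h, 172 to 274 RPKM (median 251) at 4 h and 412 to 508 RPKM (median 453) at 8 h. Ier3 rose at each step after IFNg, while the mean RPKM of the other 9 genes was lower at 4 h than at 1 h.

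Differences over the course are log2 fold changes of RPKM + 1 averaged over the 4 kinds of macrophage with equal weight, with the standard error of the fit, and a gene changed where the Benjamini-Hochberg adjusted p of limma over all genes was under 0.05. The pseudocount understates the fold of genes near or under 1 RPKM. The labels do not say that replicates are separate cultures or animals, so a p-value sets a difference against a spread between libraries that may be technical. At LPS 1 h over IFNg, 10 of 10 genes rose and none fell, with a median log2 fold change of 3.21 against -0.19 over all genes, and 60.1% of all genes passed in either direction. Fosb was tested only because of its LPS 1 h libraries (6 of 40 libraries at 1 RPKM or more). So was Egr3 (9 of 40, among them every LPS 1 h library), and the rises of both are therefore descriptions. The rise was 6.62 ± 0.08 for Egr1 (adjusted p = 1.46e-26), 5.26 ± 0.23 for Egr2, 3.76 ± 0.05 for Egr3 and 3.41 ± 0.08 for Junb. It was 3.29 ± 0.14 for Ier2, 3.14 ± 0.07 for Ier3, 1.71 ± 0.05 for Atf3 and between 1.00 and 1.26 for Fos, Fosb and Jun, with the largest adjusted p at 2.43e-12 for Fos. Taken kind by kind, all 10 genes passed in each, beside 30.6% of all genes in hWT, 42.6% in hG388S, 37.5% in h379_389 and 26.4% in mock. In h379_389, whose IFNg and LPS 1 h libraries share a prefix, the 10 rises were 0.99 for Jun to 6.43 for Egr1.

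At LPS 4 h over LPS 1 h, 9 of 10 genes fell and 1 rose, where 84.3% of all genes passed and the median over all genes was -0.53. Ier3 rose by 1.19 ± 0.07. The largest fall was that of Egr1, with a log2 fold change of -6.00 ± 0.08, and Junb was at -1.06 ± 0.08. Atf3, at -0.63 ± 0.05, was the smallest of the falls and turned to 0.20 with libraries scaled by median-of-ratios factors, which move the median of all genes to -0.001. In mock, whose LPS 1 h and 4 h libraries share a prefix, Egr1 stood at 7.03 and 8.10 RPKM at 4 h against 581 and 504 RPKM at 1 h, Fos at 7.57 and 7.75 against 73.1 and 74.8 RPKM, and Ier3 at 188 and 172 against 113 and 99.5 RPKM.

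At LPS 8 h over LPS 4 h, 4 genes rose and 3 fell, where 68.6% of all genes passed. Ier3 rose again (0.94 ± 0.07, adjusted p = 5.89e-11), and Egr1, Ier2 and Junb fell further, with Egr1 at -0.93 ± 0.08. The small rises of Fos, Jun and Atf3 (0.22 to 0.25) are close to the median of all genes, 0.22, and with median-of-ratios scaling these were -0.18, -0.15 and -0.19, which leaves Ier3 as the 1 rise. Set against IFNg, 5 genes were higher and 3 lower at 4 h (89.2% of all genes passed), and 4 higher and 4 lower at 8 h (85.2% passed). Junb, Ier2, Ier3 and Atf3 were above IFNg at both times, with log2 fold changes of 5.27 ± 0.07 in Ier3 and 1.32 ± 0.05 in Atf3 at 8 h. Fos, Jun and Egr3 were below it at both, with -1.36 ± 0.08 in Fos and -1.54 ± 0.04 in Jun at 8 h. Egr1 was above IFNg at 4 h (0.62 ± 0.08) and below it at 8 h (-0.31 ± 0.08), where scaling gave 0.19. Egr2 did not pass at either time with all libraries (-0.36 at 8 h, adjusted p = 0.141) and was lower at both without the shallowest library, with the same value and an adjusted p of 1.72e-08 at 8 h.

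With IFNg over untreated cells, 7 genes were lower and 1 higher, where 71.9% of all genes passed (81.2% without the shallowest library). Ier3 had 9.99 to 12.3 RPKM in the 8 IFNg libraries against 20.2 to 48.4 RPKM in the 8 untreated ones (log2 fold change -1.57 ± 0.07, adjusted p = 8.42e-15, and -1.62 without that library). Egr2 had 0.941 to 1.51 RPKM with IFNg and, outside the library at 0, 5.13 to 8.34 RPKM untreated (-1.41 ± 0.23 with all libraries, -1.79 without the shallowest). Junb alone rose (0.31 ± 0.08, adjusted p = 0.00121, and 0.32 without that library), at 62.0 to 86.5 RPKM against 45.2 to 102.5 RPKM, levels that overlap. The falls of Fos, Fosb, Jun, Egr3 and Atf3 were 0.12 to 0.28 in size and none passed with median-of-ratios scaling, under which Jun was 0.07 and 1 gene was higher and 2 lower. Egr3 did not pass without the shallowest library either (-0.07), and Ier2 did (-0.40, against -0.20 with it). Stromal and osteoblast markers summed to 15.4 to 150.6 RPKM in untreated macrophages and to at most 7.47 RPKM in those with IFNg or LPS, and their part in these falls was not tested.

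**Figure D2:**
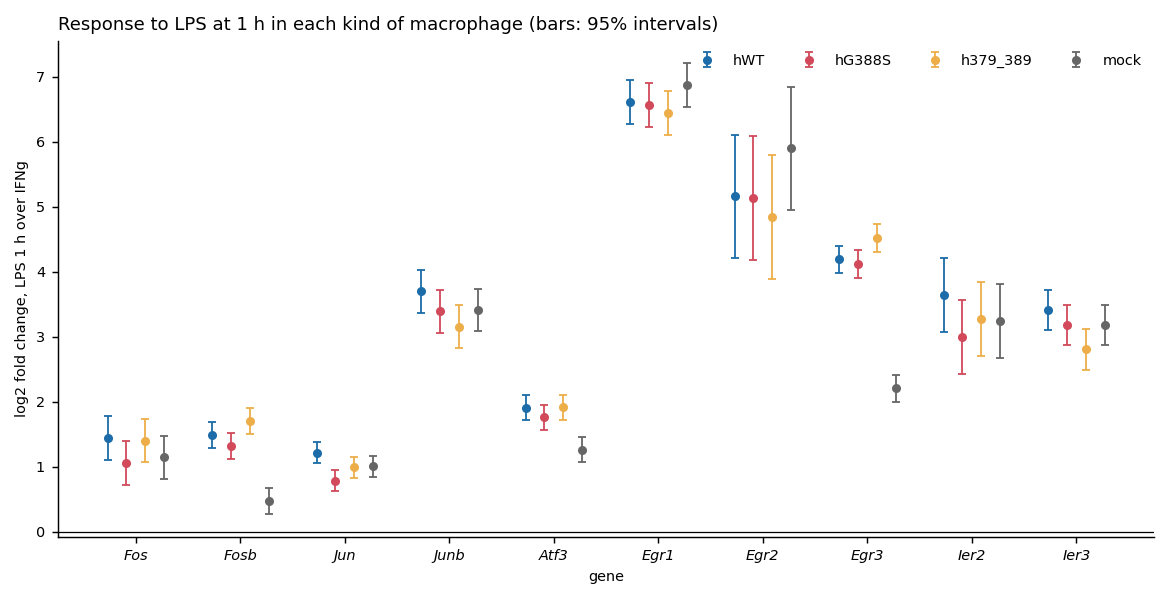
Log2 fold change of each gene at LPS 1 h over IFNg, in macrophages carrying hWT, hG388S, h379_389 or mock, with 95% intervals of the limma fit (2 libraries per group). The intervals of mock lie below those of the 3 constructs for Egr3, Fosb and Atf3.

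Whether the first hour of LPS differed between constructs and mock was tested directly. Egr3, Fosb and Atf3 rose more in all 3 constructs than in mock, and Egr3 by far the most. The IFNg libraries of h379_389 share the prefix of LPS 1 h, while those of hWT, hG388S and mock have another. The difference in response of h379_389 from mock therefore also holds a difference in prefix. Egr3 stood at 23.0 and 28.0 RPKM in hWT, 25.8 and 27.2 RPKM in hG388S and 34.1 and 36.8 RPKM in h379_389 at LPS 1 h, against 4.87 and 4.74 RPKM in mock. All 6 construct libraries lay several-fold above both mock libraries. With IFNg, Egr3 was 0.464 and 0.428 RPKM in hWT, 0.637 and 0.535 RPKM in hG388S and 0.585 and 0.605 RPKM in h379_389, against 0.272 and 0.243 RPKM in mock. Mock was thus the lowest before LPS as well, at levels under the pseudocount. The difference in response from mock was 1.98 ± 0.15 in hWT (adjusted p = 1.8e-08), 1.91 ± 0.15 in hG388S (adjusted p = 1.95e-08) and 2.31 ± 0.15 in h379_389 (adjusted p = 7.47e-10) on the log2 scale. With a pseudocount of 0.1 it was 1.77, 1.502 and 1.90, and the value of hG388S no longer passed (adjusted p = 0.0566).

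Fosb at LPS 1 h stood at 1.77 and 1.97 RPKM in hWT, 1.62 and 1.52 RPKM in hG388S and 2.27 and 2.46 RPKM in h379_389, against 0.545 and 0.272 RPKM in mock. The construct libraries lay above both mock libraries, and Fosb with IFNg was under 0.1 RPKM in all 8 libraries. Its difference in response was 1.02 ± 0.14 in hWT, 0.84 ± 0.14 in hG388S and 1.23 ± 0.14 in h379_389 (adjusted p = 0.00208 at most), and none passed with a pseudocount of 0.1. Fosb reached 1 RPKM in 6 of the 40 macrophage libraries, the construct libraries of LPS 1 h. It entered the tests only through them, so its calls against mock and IFNg describe its levels and are no separate support. Atf3 had 371 and 452 RPKM in hWT, 355 and 376 RPKM in hG388S and 398 and 425 RPKM in h379_389 at LPS 1 h, against 349 and 322 RPKM in mock. With IFNg it had 100.3 to 114 RPKM in the 6 construct libraries against 142 and 136 RPKM in mock. Atf3 in mock was thus the highest before LPS and among the lowest after it, with differences in response of 0.64 ± 0.13, 0.50 ± 0.13 and 0.65 ± 0.13. The Atf3 calls of hWT and hG388S were lost without 6 and 8 of the 8 libraries compared, left out one at a time, and that of h379_389 without its LPS 1 h library numbered 2.

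The 3 of 10 genes in each construct include Fosb, which was tested only through construct libraries. They stand beside 0.481% of all genes in hWT, 2.13% in hG388S and 1.18% in h379_389 that passed the same test of a difference in response. Without the shallowest library, whose spread enters the tests of all macrophage groups, those shares were 2.26% in hWT, 13.9% in hG388S and 8.61% in h379_389. The neutrophil and granulocyte list summed to 499.5 to 740.6 RPKM in the constructs at LPS 1 h, against 983 to 1045 RPKM in mock. The 6 macrophage markers summed to 5739 to 8026 RPKM against 8824 to 8918 RPKM. Their part in these differences was not tested. For the other 7 genes the difference in response from mock did not pass in any construct. Egr1 reached 392 to 511 RPKM in the 6 construct libraries and 581 and 504 RPKM in mock, and its difference in response was -0.26, -0.30 and -0.43 for hWT, hG388S and h379_389 (adjusted p = 0.413 at least). Egr2 ran the other way from Egr3, with 66.2 to 80.5 RPKM in the 6 construct libraries against 116 and 118 RPKM in mock. The libraries did not overlap, nor did those of 48.6% of all genes in hWT over mock, 63.5% in hG388S and 69.3% in h379_389. The difference in response, -0.74 in hWT, -0.77 in hG388S and -1.06 in h379_389, did not pass with all libraries (adjusted p = 0.496 at least). Without the shallowest library, in which Egr2 is listed at 0, the same values passed in all 3 (adjusted p = 0.000744 at most).

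All LPS 1 h libraries share a prefix, so constructs and mock can be set side by side at that time within it. Egr3 was higher than in mock by 2.18 ± 0.10 in hWT, 2.24 ± 0.10 in hG388S and 2.65 ± 0.10 in h379_389 (adjusted p = 1.67e-13 at most), and Fosb by 1.03 ± 0.10, 0.88 ± 0.10 and 1.26 ± 0.10. Jun was lower, at 81.2 to 100.2 RPKM in the construct libraries against 132 and 112 RPKM in mock, with a log2 fold change of -0.29 ± 0.08 in hWT (adjusted p = 0.0182), -0.56 ± 0.08 in hG388S and -0.43 ± 0.08 in h379_389. Atf3 was higher in hWT (0.29 ± 0.09, adjusted p = 0.0468) and h379_389 (0.29 ± 0.09). In all, 3 genes were higher and 1 lower in hWT (10.3% of all genes passed), 2 and 1 in hG388S (13.7%), and 3 and 1 in h379_389 (20.6%). Fosb, counted among those higher in each, was tested only through these construct libraries. The Jun call in hWT and both Atf3 calls were lost without single libraries of their groups or of mock. Neutrophil and granulocyte markers, 6 of 6 of which were at 1 RPKM or more in every group, summed to 499.5 to 741 RPKM in the 6 construct libraries of LPS 1 h and to 983 to 1045 RPKM in mock. Their part in these differences was not tested.

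In the other conditions hWT differed from mock in Jun with IFNg and in Jun and Ier2 at LPS 8 h, among others. With IFNg, 2 genes were lower in hWT (12% of all genes passed). Jun had 42.0 and 42.0 RPKM in hWT against 60.9 and 59.1 RPKM in mock (-0.50 ± 0.08, adjusted p = 8.19e-05), and Atf3 was also lower (-0.36 ± 0.09), a call lost without either hWT library or the first of mock. At LPS 8 h, 2 genes were higher and 2 lower (14.5% passed). Jun was then higher, at 16.4 and 16.98 RPKM in hWT against 10.1 and 10.5 RPKM in mock (0.65 ± 0.08, adjusted p = 2.44e-06), and Ier2 lower, at 32.9 and 40.4 RPKM against 100.4 and 87.4 RPKM (-1.34 ± 0.28, adjusted p = 0.00113). Jun in hWT was therefore below mock with IFNg and at LPS 1 h and above it at 8 h. The hG388S and h379_389 libraries had 17.9 to 19.6 RPKM of Jun and 32.5 to 38.6 RPKM of Ier2 at 8 h, on the hWT side of mock for both.

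At LPS 4 h, where hWT and mock have different prefixes, 2 genes were higher and 1 lower in hWT (33.1% passed). Fos had 11.1 and 11.3 RPKM in hWT against 7.57 and 7.75 RPKM in mock, Ier3 260.2 and 248 against 188 and 172 RPKM, and Junb 362 and 336 against 467 and 559 RPKM. The libraries of these 3 did not overlap, nor did those of 77.6% of all genes. Each call was lost without single libraries (0.49 in Fos, 0.49 in Ier3 and -0.55 in Junb, adjusted p = 0.0202 at most). In untreated cells, 2 genes were higher and 4 lower (46.0% passed), a comparison that rests on the library against its label. Leaving it out leaves 1 hWT library, assumed to vary like the other groups, and 17% of all genes then passed. Ier3 was then higher (1.01) and Junb and Ier2 lower (-0.84 and -0.65), as with it. Egr2 turned from -1.15 with that library to 0.38 without it. Fosb (0.31, adjusted p = 0.0313) and Egr3 (0.41, adjusted p = 0.00516) were higher as well.

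Averaged over the 5 conditions, hG388S was higher than mock in 3 genes and lower in 4 (35.9% of all genes passed), and h379_389 higher in 2 and lower in 2 (38.3%). Egr3 and Fosb were higher and Junb and Ier2 lower in both, with Egr3 at 0.57 ± 0.05 in hG388S and 0.65 ± 0.05 in h379_389, and Junb at -0.58 ± 0.07 and -0.48 ± 0.07. Outside LPS 1 h, group means in hG388S, h379_389 and mock were at most 0.632 RPKM in Egr3 and 0.187 RPKM in Fosb. At LPS 4 h Egr3 had 0.0245 RPKM in hG388S and 0.0433 RPKM in h379_389, against 0.0819 RPKM in mock. The higher averages of Egr3 and Fosb thus rest largely on LPS 1 h. Jun, Egr1 and Ier3 passed in hG388S alone, by 0.21 or less in size, and the Egr1 and Ier3 calls were lost without single libraries. Set against hWT rather than mock, limma called no gene of the 10 in hG388S and none in h379_389 (0.0445% and 0.427% of all genes passed), with 1 gene, Atf3, and none at an unadjusted p under 0.05. The differences from hWT ran from -0.12 to 0.26 in hG388S and from -0.06 to 0.27 in h379_389. Without the shallowest library, which is one of hWT, they ran from -0.15 to 0.01 in hG388S and from -0.09 to 0.10 in h379_389. No gene of the 10 was then called in either, and 0.24% and 1.28% of all genes passed. With all libraries, the 95% intervals of the Egr3 difference from hWT were -0.13 to 0.06 in hG388S and -0.04 to 0.15 in h379_389, which do not reach the size of the differences from mock given above.

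**Figure D3:**
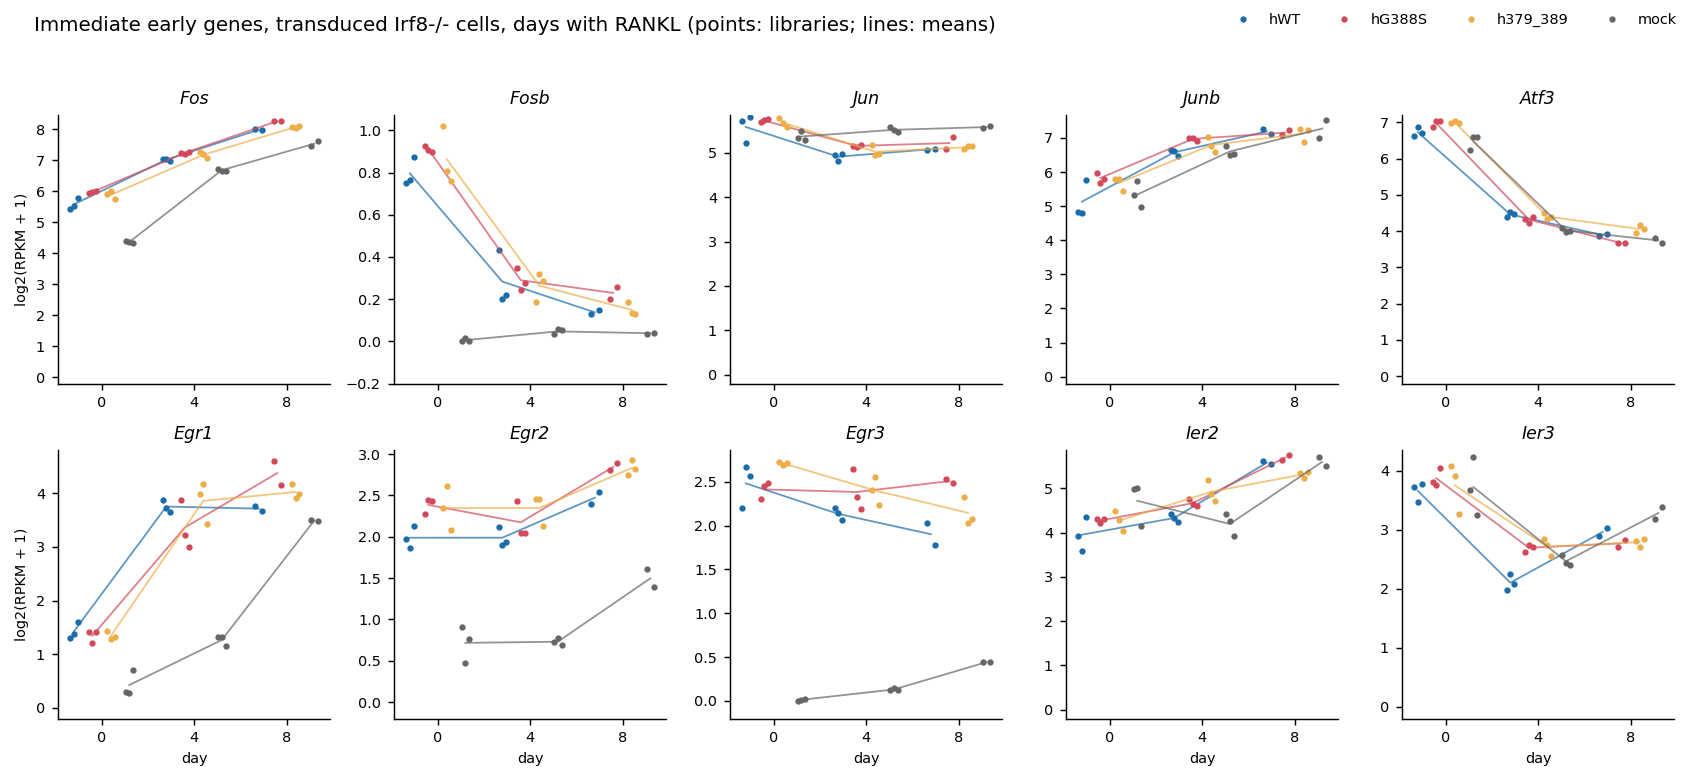
Level of each gene, as log2(RPKM + 1), at days 0, 4 and 8 in transduced cells carrying hWT, hG388S or h379_389 and in mock cells. Points are libraries (2 or 3 per group) and lines join group means. Egr3, Egr2, Fos and Egr1 in mock lie below all constructs at every day, Egr1 at day 8 only slightly below hWT.

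In the osteoclast cultures the constructs and mock differed in the same family. Egr3, Egr2 and Fos were higher in all 3 constructs than in mock at every day, and Egr1 at days 0 and 4. The hWT libraries of day 4 have another prefix than mock, so each difference of hWT from mock at day 4 also holds a difference in prefix. Egr3 stood at day 0 at 3.60, 5.37 and 4.94 RPKM in hWT, 3.93, 4.45 and 4.61 RPKM in hG388S and 5.62, 5.44 and 5.57 RPKM in h379_389, against 0, 0.0111 and 0.0171 RPKM in mock. It was close to undetected in mock at day 0, at 0.0876, 0.108 and 0.0902 RPKM at day 4 and 0.356 and 0.361 RPKM at day 8, while the construct libraries had 2.42 to 4.79 RPKM at day 8. The log2 fold change over mock was 2.47 ± 0.11 in hWT at day 0 (adjusted p = 1.26e-15), 2.002 ± 0.11 at day 4 and 1.46 ± 0.14 at day 8, and lay between 1.70 and 2.70 in hG388S and h379_389. Egr3 reached 1 RPKM in 25 of the 33 libraries, all of constructs, and was tested only for that reason. Its calls over mock therefore describe its levels and are no separate support.

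Egr2, whose protein restrains early osteoclast formation in mouse, had 2.63 to 5.11 RPKM in the 9 construct libraries of day 0 against 0.882, 0.390 and 0.693 RPKM in mock. At day 4 the construct libraries had 2.74 to 4.51 RPKM against 0.651, 0.705 and 0.618 RPKM in mock, and at day 8 4.27 to 6.61 against 2.04 and 1.62 RPKM. No construct library overlapped mock at any day, nor did those of 51.8% to 78.8% of all genes, with log2 fold changes of 0.98 to 1.67 (adjusted p = 2.72e-05 at most). Egr1 at day 4 had 13.7, 12.2 and 11.6 RPKM in hWT, 13.7, 8.27 and 6.99 RPKM in hG388S and 14.7, 16.9 and 9.78 RPKM in h379_389, against 1.5, 1.502 and 1.22 RPKM in mock. At day 8 mock had 10.3 and 10.2 RPKM and hWT 12.5 and 11.7 RPKM, a difference that did not pass (0.22 ± 0.22, adjusted p = 0.491). Egr1 in hG388S was still higher at day 8 (0.88 ± 0.22, adjusted p = 0.00159).

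Fos, the AP-1 subunit that RANKL requires, had 42.4 to 63.5 RPKM in the construct libraries of day 0 against 20.2, 19.5 and 19.0 RPKM in mock. At day 4 the ranges were 125 to 151 against 99.5 to 105 RPKM, and at day 8 248 to 307 against 174 to 194 RPKM. The groups did not overlap at any day, nor did those of 51.8% to 78.8% of all genes. The log2 fold changes were 1.21 ± 0.07, 1.61 ± 0.07 and 1.52 ± 0.07 at day 0 in hWT, hG388S and h379_389 and 0.34 to 0.73 at days 4 and 8. Jun ran the other way after day 0. It had 27.2 to 35.3 RPKM in the construct libraries of day 4 against 43.0 to 47.1 RPKM in mock, and was lower, with log2 fold changes of -0.61 ± 0.10 in hWT (adjusted p = 3.75e-05), -0.36 ± 0.10 in hG388S and -0.49 ± 0.10 in h379_389.

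At day 0 the median of all genes was itself 0.24 to 0.28 above mock, and Jun at 0.36 ± 0.10 in hG388S and 0.31 ± 0.10 in h379_389, which passed, was -0.01 and -0.05 with median-of-ratios scaling. Atf3 at day 0 was higher by 0.25 ± 0.09 in hWT, 0.50 ± 0.09 in hG388S and 0.53 ± 0.09 in h379_389, and with scaling none passed and hWT was -0.09. Ier2 was lower in hWT at day 0 (-0.77 ± 0.18, adjusted p = 0.000582), with 14.2, 10.9 and 19.3 RPKM against 30.8, 31.4 and 16.7 RPKM in mock, which overlap. That call, those of Ier2 in the other 2 constructs and that of Junb in hG388S were lost when the fit held the groups compared alone. Fosb was not tested here as it passed 1 RPKM in a single library, and had 0.684 to 1.03 RPKM in the constructs at day 0 against at most 0.0118 RPKM in mock.

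Of the 9 genes tested, 5 were higher and 1 lower than mock in hWT at day 0 (74.7% of all genes passed), 7 and 1 in hG388S (73.1%), and 6 and 1 in h379_389 (73.2%). At day 4 the counts were 5 and 1 in hWT (47.5%), 5 and 1 in hG388S (26.3%), and 6 and 1 in h379_389 (30%). At day 8 these were 3 and 1 in hWT (30.6%), 4 and 1 in hG388S (45.0%), and 5 and 2 in h379_389 (50%), of which Egr1, Ier3 and Atf3 in h379_389 and Jun in hG388S were lost without single libraries. The day 0 shares are close to the share of all genes. Egr3 is among the genes higher in every construct and day, though it was tested only through construct libraries. The neutrophil and granulocyte list summed to 265 to 499.5 RPKM in the constructs at day 0, with 3 or 4 of 6 markers at 1 RPKM or more, against 946 to 1303 RPKM in mock with 6 of 6. At days 4 and 8 it summed to at most 17.6 RPKM in all groups. The 6 macrophage markers summed to 5494 to 6881 RPKM in the constructs at day 0, against 20890 to 23500 RPKM in mock, and to 4328 to 6251 RPKM against 9578 to 11620 RPKM at day 8. The osteoclast list summed to 2367 to 3432 RPKM in the constructs at day 8, against 6416 to 8129 RPKM in mock. The part of these lists in the differences was not tested.

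Taken as the difference from a gene's mean over the experiment, levels were lower in longer transcripts in mock at days 0 and 8. The Spearman correlation of that difference with transcript length was -0.053 to 0.364 in the 9 construct libraries of day 0, against -0.388 to -0.518 in the 3 of mock. At day 8 it was -0.237 to 0.281 in the constructs, against -0.358 and -0.458 in mock. With that trend subtracted from each library, the differences from mock at days 0, 4 and 8 were 1.43 to 2.54 in Egr3, 0.98 to 1.68 in Egr2 and 0.39 to 1.81 in Fos. At days 0 and 4 they were 0.69 to 2.63 in Egr1. All of these calls passed, while that of Egr1 in h379_389 at day 8 did not (0.41, adjusted p = 0.0963).

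The other 2 constructs were set against hWT by day, which gave 7 calls in all. At day 0, Fos was higher in hG388S by 0.40 ± 0.07 (adjusted p = 0.00668, 0.765% of all genes passed), and limma called no gene in h379_389 (0.0176%), where 4 were at an unadjusted p under 0.05. At day 4, Fos and Ier3 were higher in hG388S (0.22 and 0.59, 27.7% passed) and Egr2, Ier2 and Ier3 in h379_389 (0.36, 0.59 and 0.61, 32.2% passed). At day 8, Egr3 was higher in hG388S (0.60, adjusted p = 0.0389, 1.73% passed) and no gene was called in h379_389 (3.78%), with 1 at an unadjusted p under 0.05. The hWT libraries of day 4 have a prefix of their own, and each of these 7 calls was lost without at least 1 single library.

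Over the days, with the 4 kinds of transduced cell averaged, RANKL and time in culture cannot be told apart, since no cells were kept in M-CSF alone. At day 4 over day 0, 4 of 9 genes rose and 4 fell (65.9% of all genes passed), and at day 8, 5 rose and 4 fell (72.6%). Fos rose by 1.58 ± 0.04 at day 4 and 2.51 ± 0.04 at day 8, Egr1 by 1.93 ± 0.09 and 2.77 ± 0.10, and Junb by 1.24 ± 0.10 and 1.69 ± 0.11. Egr1 in hWT stood at 1.47, 1.58 and 2.02 RPKM at day 0, 13.7, 12.2 and 11.6 RPKM at day 4 and 12.5 and 11.7 RPKM at day 8, while in mock it was 0.223, 0.217 and 0.625 RPKM at day 0, 1.5, 1.502 and 1.22 RPKM at day 4 and 10.3 and 10.2 RPKM at day 8. Atf3 fell most, with log2 fold changes of -2.49 ± 0.04 and -2.96 ± 0.05 and 75.2 to 131 RPKM in the 12 libraries of day 0, 14.8 to 22.0 RPKM in the 12 of day 4 and 11.7 to 17.1 RPKM in the 9 of day 8. Ier3 (-1.26 at day 4) and Jun (-0.44) also fell, and Ier2 rose by 1.25 ± 0.10 by day 8. Egr3 was -0.14 at day 4 and -0.15 at day 8, values that turned to 0.003 and 0.20 with a pseudocount of 0.1, the levels in mock being under 0.4 RPKM throughout.

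**Figure D4:**
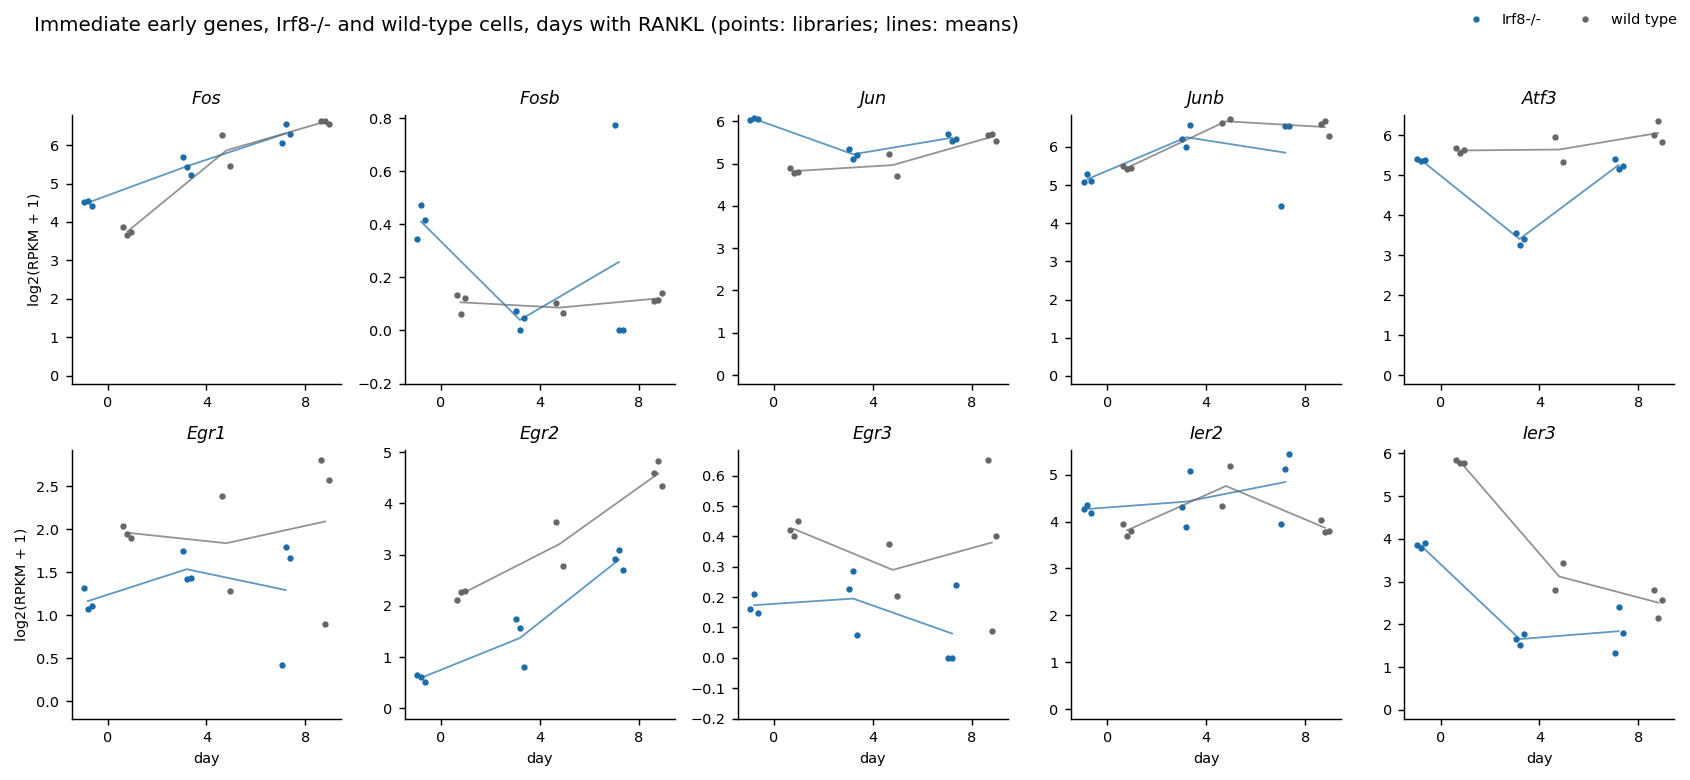
Level of each gene, as log2(RPKM + 1), at days 0, 4 and 8 in Irf8-/- (KO) and wild-type (WT) cells. Points are libraries (2 or 3 per group) and lines join group means. Egr2 lies lower in KO at each day, Jun and Fos higher in KO at day 0, and Atf3 dips in KO at day 4.

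The comparison of KO with WT cells asks what loss of Irf8 changes in these genes. Egr2 and Ier3 were lower in KO at every day, Fos and Jun higher in KO before RANKL, and Atf3 far lower in KO at day 4. Egr2 had 0.575, 0.523 and 0.432 RPKM in KO against 3.30, 3.80 and 3.92 RPKM in WT at day 0, 2.33, 1.97 and 0.756 against 11.5 and 5.83 RPKM at day 4, and 6.54, 7.54 and 5.48 against 23.0, 27.5 and 19.3 RPKM at day 8. It rose with the days in both genotypes, and no KO library reached a WT library of the same day. Nor did the KO and WT libraries of 84.9% of all genes overlap at day 0, 26.1% at day 4 and 49.3% at day 8. The log2 fold change of KO over WT was -1.63 ± 0.25 at day 0 (adjusted p = 6.59e-05), -1.83 ± 0.28 at day 4 (adjusted p = 0.000245) and -1.69 ± 0.25 at day 8 (adjusted p = 0.000337). Egr2 was thus lower in KO than in WT cells here and lower in mock than in the constructs in the transduced cells, which the protocol gives as Irf8-/- without describing mock. Fos at day 0 did not match in this way, being higher in KO than in WT and lower in mock than in the constructs. In macrophages at LPS 1 h, Egr2 was higher in mock than in the constructs.

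Ier3 had 13.5, 12.7 and 14.0 RPKM in KO against 56.8, 53.3 and 53.9 RPKM in WT at day 0 (-1.95 ± 0.24, adjusted p = 9.74e-06) and 2.174, 1.87 and 2.45 against 5.93 and 9.90 RPKM at day 4 (-1.46 ± 0.27, adjusted p = 0.00165). At day 8 the libraries overlapped, at 1.505, 4.28 and 2.48 against 6.01, 3.43 and 4.93 RPKM, and the call (-0.67, adjusted p = 0.0487) was lost with median-of-ratios scaling and without each of 4 libraries. Atf3 was close between genotypes at day 0, with 41.8, 40.3 and 40.6 RPKM in KO and 50.4, 45.7 and 48.6 RPKM in WT. At day 4 it had 10.8, 8.64 and 9.54 RPKM in KO against 60.8 and 39.5 RPKM in WT (-2.23 ± 0.19, adjusted p = 9.14e-07), and at day 8 41.1, 34.6 and 36.4 against 62.9, 80.9 and 55.5 RPKM (-0.80 ± 0.17, adjusted p = 0.00425). Every KO library of day 4 was below every KO library of day 0, while WT libraries of day 4 were as high as those of day 0 or close to them. Nor did the KO libraries of days 4 and 0 overlap for 70% of all genes, in either direction.

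Jun had 64.8, 66.8 and 65.05 RPKM in KO against 28.5, 26.6 and 26.7 RPKM in WT at day 0 (1.24 ± 0.14, adjusted p = 3.44e-06) and Fos 22.0, 22.5 and 20.4 against 13.5, 11.6 and 12.3 RPKM (0.75 ± 0.19, adjusted p = 0.00497). Fos at day 8 stood at 65.9, 92.3 and 77.4 RPKM in KO and 98.5, 98.3 and 93.2 RPKM in WT, levels that do not overlap (nor did 49.3% of all genes) but did not pass (-0.31, adjusted p = 0.212). By day 8 Jun was 51.2, 45.4 and 47.2 RPKM in KO and 49.8, 50.6 and 45.4 RPKM in WT, which overlap. Junb had 20.9, 93.3 and 92.1 RPKM in KO and 95.7, 101 and 77.6 RPKM in WT at day 8, and Egr1 0.340, 2.46 and 2.18 RPKM in KO against 5.98, 0.862 and 4.94 RPKM in WT. The first KO library of day 8 was the lowest of its group in Junb, Egr1 and Ier2 and the highest in Fosb, at 0.711 RPKM where the other 2 are listed at 0. Ier2 was called higher in KO at day 8 (0.98 ± 0.34, adjusted p = 0.0427) with 14.6, 34.1 and 42.5 RPKM in KO against 15.5, 12.6 and 12.8 RPKM in WT, which overlap, a call lost without any of 5 of the 6 libraries. Fosb and Egr3 stayed under 1 RPKM in all 17 libraries and were not tested.

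Of the 8 genes tested, 2 were higher and 2 lower in KO at day 0 (40.2% of all genes passed), none higher and 3 lower at day 4 (13.4%), and 1 higher and 3 lower at day 8 (31.2%). The same trend of level with transcript length marked 1 KO and 1 WT library of day 4 and 2 KO libraries of day 8 (Spearman correlations of -0.467 to -0.558), and without these 4 libraries, which leaves 1 library in 2 of the groups, 17 calls rather than 11 passed over the 3 days, beside 70.2%, 37% and 66% of all genes at days 0, 4 and 8. The neutrophil and granulocyte list summed to 185 to 195 RPKM in KO and 14.2 to 19.8 RPKM in WT at day 0. The macrophage markers summed to 9680 to 9825 RPKM in KO and 23770 to 24690 RPKM in WT at day 0, and to 4466 to 4870 RPKM in KO and 14670 to 15080 RPKM in WT at day 4. The osteoclast list summed to 31270 to 46860 RPKM in KO and 17020 to 17500 RPKM in WT at day 4. The stromal list summed to 1.60 to 20.5 RPKM in KO and 108 to 632 RPKM in WT at day 8. Their part in these differences was not tested.

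Within a genotype, Fos rose and Ier3 fell in both. Fos rose by 0.95 ± 0.19 at day 4 and 1.8 ± 0.19 at day 8 in KO and by 2.11 ± 0.21 and 2.86 ± 0.19 in WT, and the log2 fold changes of Ier3 were -2.19 ± 0.24 and -2.005 ± 0.24 in KO and -2.68 ± 0.27 and -3.29 ± 0.24 in WT. Egr2 rose by 2.31 ± 0.25 in KO and 2.37 ± 0.25 in WT by day 8. In KO, 3 of 8 genes rose and 3 fell at day 4 (57.9% of all genes passed) and 2 rose and 2 fell at day 8 (59.2%). In WT, 3 rose and 1 fell at day 4 (43.2%) and 5 rose and 1 fell at day 8 (52.7%). The Junb calls, those of Egr2 at day 4 and that of Atf3 in WT at day 8 were lost without single libraries, and Junb in KO at day 8, at 0.69, was -0.71 without the libraries with a length trend.

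The change from day 0 differed between genotypes in Fos, Jun and Atf3 by day 4 and in Fos, Jun and Ier3 by day 8, where 27.6% and 37.8% of all genes passed. Jun fell in KO (-0.84 at day 4) and rose in WT by day 8 (0.81), and the difference was -0.98 ± 0.21 at day 4 (adjusted p = 0.00239) and -1.25 ± 0.20 at day 8 (adjusted p = 0.000144). Fos rose less in KO, with a difference of -1.16 ± 0.28 at day 4 (adjusted p = 0.00628) and -1.06 ± 0.27 at day 8 (adjusted p = 0.00616), starting higher. Atf3 differed by -2.003 ± 0.26 at day 4 (adjusted p = 2.96e-05), and Ier3 fell less in KO by day 8 (1.28 ± 0.34, adjusted p = 0.00852), starting lower.

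Other genes of these pathways were taken from lists. Of 19 tested immediate early genes beyond the 10, 14 rose and 2 fell at LPS 1 h over IFNg, with a median of 1.45 against -0.19 over all genes, among them the antiproliferative genes Btg2 (3.68 ± 0.05) and Btg1 (1.98 ± 0.04) and the stress gene Gadd45b (2.87 ± 0.07). Of 12 other AP-1 family genes, 6 rose and 2 fell, led by Maff (4.34 ± 0.10), Fosl2 (2.174 ± 0.06) and Jund (0.97 ± 0.09). Of 17 genes of the ERK, JNK and p38 cascade, 4 rose and 8 fell, with Mapkapk2, a kinase below p38, at 0.87 ± 0.05 and Map3k8, the kinase that links LPS to ERK, at 0.95 ± 0.09. Of 10 genes for serum response factor, its partners, CREB factors and the Egr corepressors, 4 rose and 3 fell, with Srf at 0.67 ± 0.06. Of 9 heat shock genes 3 rose and 2 fell, with Hspa1a at 2.48 ± 0.13 and Hspa1b at 2.38 ± 0.11, near-identical genes whose reads cannot be placed with certainty. Of all genes, 11.2% rose and 48.9% fell at LPS 1 h over IFNg. At 4 h over 1 h, 14 of the 19 other immediate early genes fell and 2 rose, where 68.3% of all genes fell and 16% rose.

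The difference in response to LPS between constructs and mock touched 1 of 12 other AP-1 family genes in each construct, Jdp2, whose protein represses AP-1 (1.02 ± 0.20 in hWT, 1.14 ± 0.20 in hG388S and 0.80 ± 0.20 in h379_389). Of the 19 other immediate early genes, 1 differed in hWT, 3 in hG388S and 5 in h379_389, and Myc responded less than in mock in each (-1.27 ± 0.20, -1.41 ± 0.20 and -1.17 ± 0.20). The shares of all genes that differed were 0.481% in hWT, 2.13% in hG388S and 1.18% in h379_389. In KO over WT at day 0, 5 of 17 other immediate early genes were higher and 4 lower, with Myc at 3.86 ± 0.13, Btg1 at -1.85 ± 0.13 and Btg2 at -1.95 ± 0.18, while 3 of 12 AP-1 family genes were higher and 2 lower, with Jdp2 at 1.31 ± 0.19 and Batf2 and Batf3 at -1.99 ± 0.18 and -1.96 ± 0.43. Of 8 heat shock genes, 5 were higher and none lower in KO at day 0, with Hsp90aa1 at 2.25 ± 0.22 and Hspd1 at 1.95 ± 0.16. These counts stand beside 26.5% of all genes higher and 13.7% lower in KO at day 0. In hWT over mock at day 0, 9 of 10 genes of the serum response factor list were higher and none lower, among them Nab2, a corepressor that binds Egr proteins and is induced by them, at 1.42 ± 0.13. Nab2 was lower in KO than in WT at day 4 (-1.25 ± 0.33) and day 8 (-1.60 ± 0.29). The median of that list in hWT over mock at day 0 was 0.89, against 0.24 over all genes, of which 48.1% were higher and 26.6% lower.

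The genes whose level over the 20 macrophage groups followed the mean profile of the 10 most closely, by Pearson correlation of log2 levels, were Btg2 (0.989), Nfe2l2 (0.975), Zfp131 (0.959), Olr1 (0.957), Prdm1 (0.948), Trib1 (0.946), Btg1 (0.945) and Plk2 (0.944). Btg2 had a mean of 11.1 RPKM untreated, 8.09 with IFNg, 118 at LPS 1 h, 17.3 at 4 h and 15.6 at 8 h. Trib1 had 9.87, 4.28, 65.7, 4.27 and 6.13 RPKM at the same points. Among the 10, Egr1 followed their mean most closely (0.973) and Ier3 least (0.238). The groups share conditions and library preparation, so these are descriptions over 20 points.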

How the data were processed

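Total RNA of 90 bone marrow-derived macrophage and osteoclast libraries was analysed from a deposited table of 24543 genes. Its values are RPKM made by the authors, per the file headers with Tophat alignments to mm10 quantified in Partek. TopHat2 2.1.0, Partek, CASAVA 1.8.4, bcl2fastq 2.17.1 and deepTools are named in the submitters' processing notes, without their order. RPKM are not counts, so no count model was used, and all columns of values were used (0 left out). RPKM divides by total alignments, so a gene's value also moves with the share that other genes take.

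In each of the 3 experiments, log2(RPKM + 1) was fitted with limma 3.58.1 in R 4.3.3, with 1 mean per group and the mean-variance trend. Genes under 1 RPKM in all libraries but 1, or in all, were left out. The fits held 11530, 11374 and 11237 genes in the Irf8-/- and Irf8+/+, transduced and macrophage experiments, and left 11, 21 and 20 residual degrees of freedom. Moderated tests were two-sided, with p-values adjusted by Benjamini-Hochberg over all genes of a contrast. The ± after a log2 fold change is its standard error. Tables and figures were made with Python 3.11.15, pandas 2.3.3, numpy 2.4.6 and matplotlib 3.10.9. The fit was tested on simulated data.

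The 10 genes, the gene lists and the tests were chosen with earlier results of these data known. From a list, up to 3 genes with the smallest adjusted p in a comparison were named, together with the 8 genes of most similar profile. Alternatives were a pseudocount of 0.1, no filter, median-of-ratios scaling, the groups of a contrast alone, no mean-variance trend, a replicate block and leaving out each library. Removal of the length trend or of libraries, and the contrasts of hG388S and h379_389 with mock at LPS 1 h and with hWT by day, were chosen after seeing the data. Gene positions and promoters come from RefSeq (GRCm38.p6).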

Additional observations from a re-analysis of the deposited data

Results flagged for a closer look

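The change from day 0 differed between KO and WT cells, by the interaction term of limma, in 6 cases among the 8 genes tested. These were 3 of 8 genes at each day, beside 27.6% of all genes by day 4 and 37.8% by day 8. The day 8 count is close to the share of all genes. By day 4 the KO change minus the WT change was -1.16 in Fos, -0.98 in Jun and -2.003 in Atf3 on the log2 scale. By day 8 it was -1.06 in Fos, -1.25 in Jun and 1.28 in Ier3.

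The response to LPS 1 h over IFNg differed from that of mock, by the same kind of term, in 9 cases. These were 3 of 10 genes in each construct, beside 0.481% of all genes in hWT, 2.13% in hG388S and 1.18% in h379_389. Fosb, which is among them, was tested only because of the construct libraries at LPS 1 h. The construct response minus the mock response was 1.02 in Fosb, 1.98 in Egr3 and 0.64 in Atf3 for hWT. For hG388S it was 0.84 in Fosb, 1.91 in Egr3 and 0.50 in Atf3, and for h379_389 it was 1.23 in Fosb, 2.31 in Egr3 and 0.65 in Atf3.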

How the results depend on the processing

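Of 465 pairs of a gene and a contrast, 254 passed, and 185 of these passed throughout, under every library left out (208) and every other setting (196). With median-of-ratios scaling the sign turned in Atf3 in hWT over mock at day 0 (-0.087), Jun in hG388S (-0.008) and h379_389 (-0.053) over mock at day 0, Jun with IFNg over untreated (0.071), Atf3 at LPS 4 h over 1 h (0.204), Fos (-0.179), Jun (-0.150) and Atf3 (-0.189) at 8 h over 4 h, and Egr1 at 8 h over IFNg (0.190). With a pseudocount of 0.1, Egr3 in transduced cells turned to 0.003 at day 4 and 0.196 at day 8 over day 0. Junb at day 8 over day 0 in KO was -0.706 without the libraries with a length trend, and Ier3 in hWT over mock at day 0 was 0.556 with that trend subtracted. Egr2 in untreated hWT over mock was 0.377 without the shallowest library, hWT replicate 1, and -2.681 without hWT replicate 2. Apart from the scalings and pseudocount, whose construction moves all genes or weights low values, the cause was not tested.

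Calls among the genes in KO over WT at days 0, 4 and 8 numbered 11, and 17 without the libraries with a length trend, where 70.2%, 37% and 66% of all genes passed in place of 40.2%, 13.4% and 31.2%. Those for the response of constructs to LPS against mock numbered 9, and 4 with a pseudocount of 0.1. Those for hG388S and h379_389 over mock and hWT, averaged over macrophage conditions, numbered 11, and 9 to 17 with single libraries left out, the 17 without untreated hWT replicate 2. Those over hWT at days 0, 4 and 8 numbered 7, then 17 with the groups of the contrast alone, 4 with the length trend subtracted, and 4 to 11 with single libraries left out (11 without hWT day 0 replicate 3, 4 without h379_389 day 4 replicate 1 or hWT day 4 replicate 3).

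Same-numbered libraries did not consistently deviate together. The median correlation of their deviations was -0.005 in the KO and WT libraries (-0.351 to 0.899, over 0.1 in 13 of 40 pairs, and 3 of the 4 libraries with a length trend carry the number 3), -0.009 in transduced cells (48 of 168) and -0.005 in macrophages (92 of 380), so the numbers were not taken to pair libraries. With a replicate block, KO over WT had 10 calls against 11, the response to LPS against mock 8 against 9, hWT over mock in macrophages 18 against 19, and the other 9 counts were the same. RPKM carry no counts, so counting error is not given for single values. Values under about 1 RPKM rest on few reads, most of all in the library of 0.218 M alignments.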
